A study of Mus musculus with 12 samples.

Results

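The transforming growth factor-β (TGF-β) response of adult mouse cardiac fibroblasts in which the linker histone H1.0 had been depleted is described here, from 6 of the 12 RNA-seq libraries of the study. The 6 libraries were chosen by their labels: 3 came from fibroblasts that received siRNA against H1.0 and TGF-β, and 3 from fibroblasts that received the same siRNA and vehicle. All 12 libraries came from primary cardiac fibroblasts of adult female and male C57BL/6J mice of wild type genotype, which were isolated by collagenase digestion, expanded in serum with basic fibroblast growth factor and then held for 24 h in 0.1% FBS before TGF-β was added at 10 ng/ml. The other 6 libraries hold the same vehicle and TGF-β arms in cells that received a scramble siRNA. They show below where the response differed. They also entered the same fit, so the spread and replicate terms behind every call rest on all 12 libraries. Every library is therefore a transfected primary culture, and the depletion is a knockdown of the mRNA and not a deletion. The length of the TGF-β exposure of these libraries and the animals and sex behind each one are not given in the sources used here.

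H1.0, encoded by H1f0, is a linker histone that binds nucleosomes near the entry and exit of DNA and favours compact chromatin, and it is typical of cells that have left the cell cycle. TGF-β binds paired type II and type I receptor kinases, which phosphorylate SMAD2 and SMAD3, and these enter the nucleus with SMAD4 and act on target genes together with other factors. In cardiac fibroblasts the cytokine is known for driving the myofibroblast state, in which cells build smooth muscle-type actin filaments and secrete and crosslink collagen-rich matrix. The comparison asks how much of that programme is still mounted when H1.0 is low.

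Levels are given as counts per 1000000 (CPM) after trimmed mean of M values (TMM) scaling, and changes as log2 fold changes ± SE with n = 3 libraries a group. A gene was called when the p-value of edgeR's quasi-likelihood test, adjusted by the Benjamini-Hochberg method over all 18028 genes tested, was under 0.01, with the replicate number as a block in the fit. The block matters here. Where the count of called genes in a list or over all genes tested moved by more than 1.5 times without it, that count is given as well. Counts of genes shared between comparisons and of changes of at least 2-fold were taken with the block only. In units of 1000000 estimated reads, the knockdown libraries held 21.4 to 36.3, and depth moved with treatment in 2 of the 3 pairs. Replicates 1 and 2 had 22.9 and 21.4 with vehicle against 36.2 and 36.3 with TGF-β, whereas replicate 3 had 35.5 and 36.3. Replicate 3 stood apart from replicates 1 and 2 in every group. Its counts differed from theirs by a chi-square per degree of freedom of 38.4 and 45.1 in the vehicle and of 59.3 and 69.3 in the TGF-β group, against 9.41 and 17 between replicates 1 and 2. H1f0 itself (chr15:79028450-79030504, GRCm38) was at 36.5, 40.0 and 22.4 CPM in the vehicle libraries and at 31.4, 32.6 and 19.0 CPM with TGF-β for replicates 1, 2 and 3, below the 93.7 to 113 CPM of the 6 scramble libraries. A change with TGF-β was not called under knockdown (log2 -0.24 ± 0.16, adjusted p = 0.263). Fibroblast markers were abundant throughout, and the defining markers of endothelium, cardiomyocytes, lymphocytes and Schwann cells were low. Their sums were at most 79.3, 11.95, 2.65 and 3.13 CPM in any knockdown library. In the scramble libraries they reached 141.7, 96.35, 2.19 and 3.24 CPM, with cardiomyocyte markers at 65.62 CPM or more. The part of these cells in differences between the siRNA groups was not tested. The 15 macrophage markers summed to 954 to 1020 CPM with vehicle and 540 to 831 CPM with TGF-β, and 9 of them fell (5 without the block).

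TGF-β changed 4825 genes in H1.0-depleted fibroblasts, or 26.8% of those tested. It raised 2551 (14.2%) and lowered 2274 (12.6%). Without the replicate block these counts were 1648 and 1190. They were 2086 and 1822 when only the 6 knockdown libraries were fitted, with the block. The changes were mostly modest: the median was a log2 fold change of 0.54 among genes that rose and -0.69 among those that fell, and 601 and 674 genes moved at least 2-fold. At a log2 fold change of 3 or more the response leaned upward, with 109 genes higher and 30 lower. Most called genes, 4821 of 4825, had the same sign in each of the 3 replicate pairs, and the median over all genes tested was -0.01. For the gene lists below, counts near the shares of 14.2% higher and 12.6% lower say little about the list. Among genes with a mean of at least 5 CPM in 1 arm and no overlap between arms, the 12 with the largest rises were Crabp2, Car2, Meox1, Baalc, Ccl17, Thbs4, Nebl, Serinc2, Olfm2, Acan, Olr1 and Lef1. They encode, among others, a retinoic acid carrier (Crabp2), a carbonic anhydrase (Car2), a homeobox factor of activated cardiac fibroblasts (Meox1), a chemokine (Ccl17), the proteoglycan aggrecan (Acan) and a transcription factor of the WNT pathway (Lef1). By the same measure Scara5, Gdpd2, Slc10a6, Selenbp1, Ly6a, Mrc1, Akr1c14, Spns2, Cxcl5, Strip2 and Fbln7 fell the most, by 4.04 to 2.49 on the log2 scale, beside Fam205a2, a member of a multicopy family on an unplaced scaffold whose reads cannot be assigned with certainty. Gdpd2 was not called without the block.

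Meox1 (chr11:101877510-101894374) shows how wide the largest responses were. It stood at 1.67, 1.54 and 2.67 CPM in the vehicle libraries and at 68.9, 40.1 and 138 CPM with TGF-β in replicates 1, 2 and 3. Every treated library lay far above every vehicle library (log2 5.35 ± 0.19, adjusted p = 2.7e-08). Ccl17, which encodes a ligand of the receptor CCR4, rose from 1.34, 0.57 and 1.24 CPM to 35.8, 26.2 and 45.0 CPM. That rise was of log2 5.09 ± 0.15 (adjusted p = 1.31e-08). Thbs4 (chr13:92751590-92794818), for the matricellular glycoprotein thrombospondin 4, was close to silent with vehicle, at 0.42, 0.57 and 0.30 CPM, and reached 15.8, 11.8 and 12.4 CPM (log2 4.98 ± 0.27, adjusted p = 3.99e-07). In scramble cells Thbs4 went from 1.30 to 2.33 CPM up to 32.5 to 47.4 CPM, a similar fold from a higher base, and the difference between both responses was 0.56 ± 0.39 (adjusted p = 0.483).

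**Figure D1:**
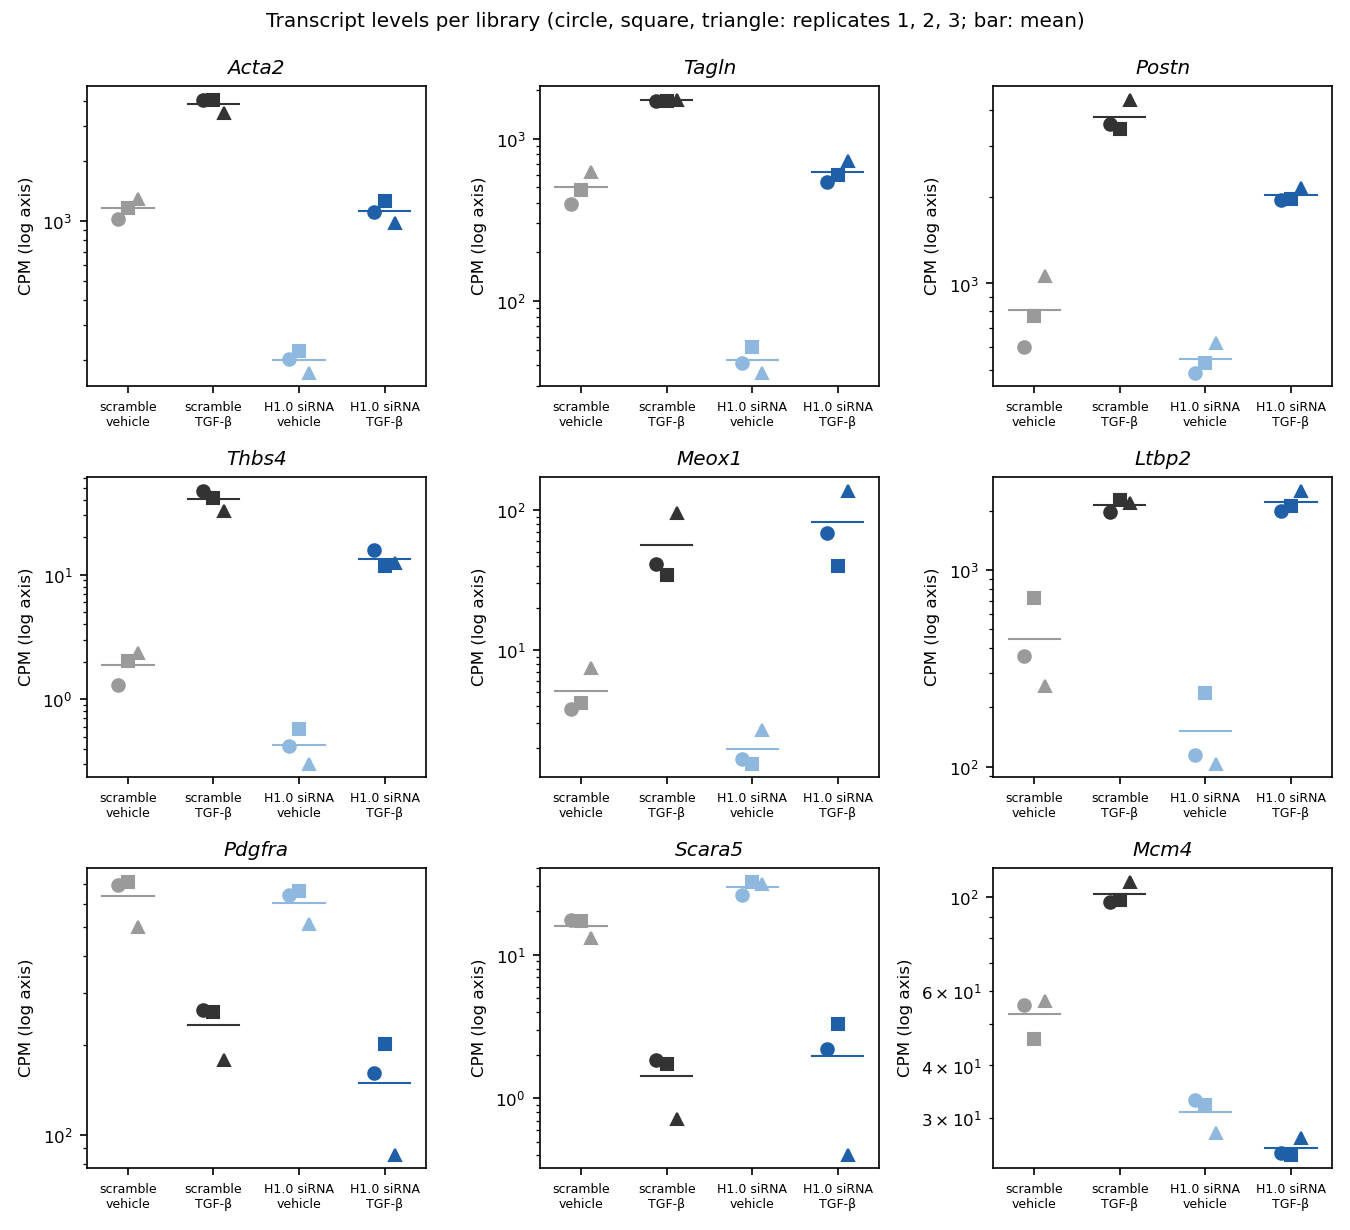
Levels of 9 genes in all 12 libraries, in CPM on log axes, by siRNA and treatment; symbols mark replicates 1, 2 and 3 and bars the group mean. Acta2, Tagln, Postn, Thbs4, Meox1 and Ltbp2 rose and Pdgfra and Scara5 fell with TGF-β under H1.0 siRNA, with no overlap between arms, whereas Mcm4 rose with TGF-β only in the scramble libraries.

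Measured as fold changes and not as levels reached, most of the response seen in scramble cells was still present. In those cells 2777 genes rose (15.4%) and 2348 fell (13.0%, or 1431 genes without the block), 5125 in all (28.4%). Of the 2777 that rose, 1881 (67.7%) also rose under knockdown, 7 fell and 889 were not called, and 2615 (94.2%) had a positive change. Of the 2348 that fell, 1593 (67.8%) also fell, 6 rose and 2265 (96.5%) had a negative change. Read from the other side, 73.7% of the genes raised and 70.1% of those lowered under knockdown were called in the same direction in scramble cells. For the 548 genes that rose at least 2-fold in scramble cells, medians on the log2 scale were 1.58 there and 1.60 under knockdown, and 417 (76.1%) were called. Among the 686 that fell at least 2-fold it was -1.42 and -1.21, with 539 (78.6%) called. Across the 13553 genes with at least 1 CPM in a group, the log2 fold changes of the 2 comparisons, which share no library, had a Pearson correlation of 0.755 and a Spearman correlation of 0.762. Genes are not independent replicates, so these values are descriptions.

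The difference between both responses was tested gene by gene within the same fit. It was called for 118 genes (0.655%), of which 74 (0.41%) had a higher and 44 (0.244%) a lower log2 fold change in H1.0-depleted cells. The count depends heavily on the fit, at 6 and 2 genes without the replicate block and 300 and 293 with DESeq2. Leaving out 1 library at a time gave 8 to 107 and 3 to 84 genes, and leaving out replicate 3 of every group gave 203 and 192. An unadjusted p under 0.05 was met by 3308 genes. Of the 74 genes, 61 rose with TGF-β under knockdown. Of the 44 genes, 38 rose in scramble cells and 30 were not called under knockdown. Both sets were picked by the difference itself, so these counts follow in part from the choice and are descriptions. Over all 18028 genes tested, 14.2% rose under knockdown, 15.4% rose in scramble cells and 13203 genes were not called under knockdown.

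**Figure D2:**
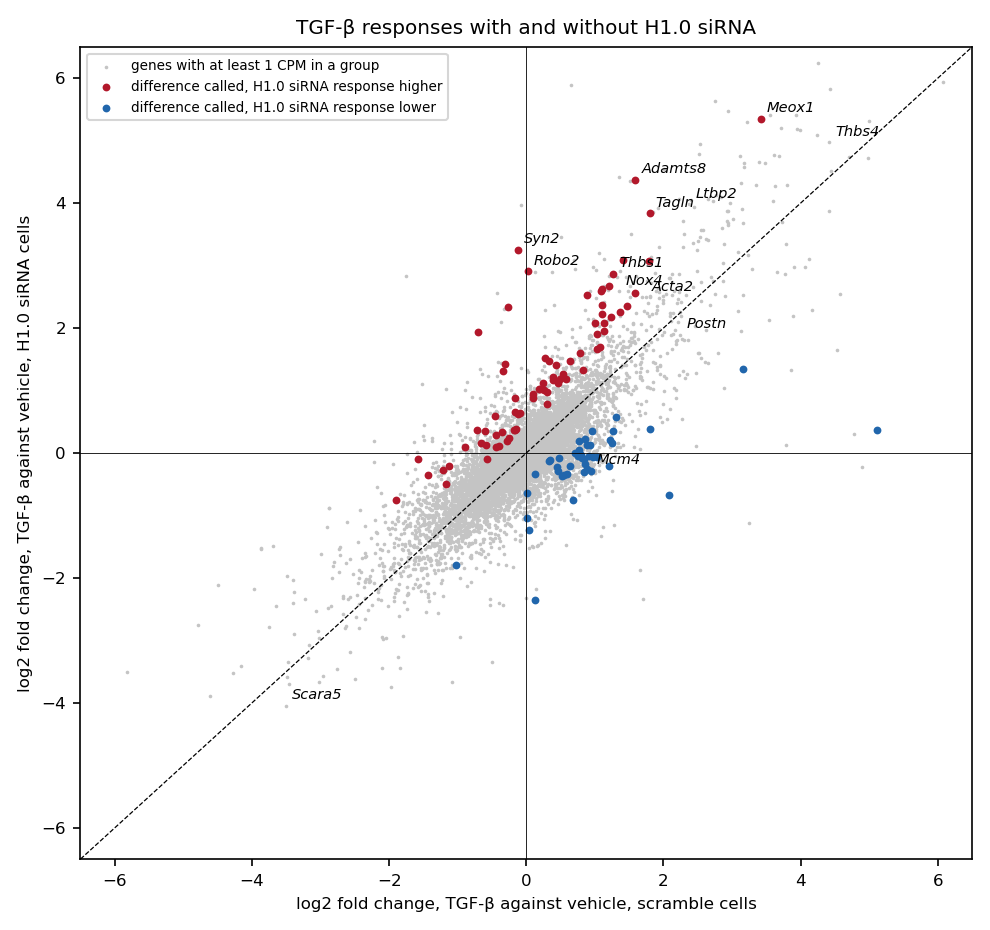
Response to TGF-β of scramble cells (x axis, log2 fold change) against that of H1.0 siRNA cells (y axis, log2 fold change) for 13529 genes with at least 1 CPM in a group; 24 genes lie outside the axes, and the dashed line marks equal changes. Most genes follow the diagonal, with genes of a higher response under H1.0 siRNA in red (such as Tagln, Syn2 and Robo2) and of a lower one in blue (such as Mcm4).

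Genes of the TGF-β pathway itself moved in both directions. Of 24 ligand, receptor and SMAD genes, 9 rose and 6 fell under knockdown (6 and 3 without the block), with a median log2 fold change of 0.11. Ltbp2, for an elastic microfibril protein of the family named for latent TGF-β binding, rose the most (log2 3.99 ± 0.30, adjusted p = 3.46e-06). It went from 114, 238 and 104 CPM to 1993, 2114 and 2541 CPM. Inhba, for the activin A subunit, rose by 1.70 ± 0.15 and the ligand gene Tgfb1 by 1.30 ± 0.10. Both ligand transcripts were thus higher in the treated cultures. Smad9, a SMAD of the bone morphogenetic protein (BMP) branch, fell from 6.39 to 14.6 CPM down to 1.65 to 3.13 CPM (log2 -2.34 ± 0.23), and the co-receptor gene Tgfbr3 fell by 1.83 ± 0.22. Smad3 fell by 0.67, while Smad2 and Smad4 had changes of 0.02 and 0.04 and were not called.

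Feedback inhibitors and direct SMAD targets rose in 11 of 20 cases and fell in 1 (9 and 0 without the block). Their median was 0.57 against 0.36 in scramble cells. Ccn2, for connective tissue growth factor, went from 718, 634 and 688 CPM to 2788, 2454 and 3439 CPM (log2 2.08 ± 0.10, adjusted p = 1.98e-07). It reached a level with TGF-β close to that of scramble cells, at 2779 to 3774 CPM, from a lower vehicle level. Nox4, an NADPH oxidase subunit linked to myofibroblast conversion, rose by 2.59 ± 0.21, and Pmepa1, an inhibitor that sequesters SMADs, by 1.72 ± 0.08, the same log2 change as in scramble cells. Of 16 ID and BMP-SMAD target genes 8 fell and 2 rose (4 and 1 without the block). Id1, an inhibitor of basic helix-loop-helix factors that BMP signals maintain, fell from 38.8, 37.3 and 16.5 CPM to 11.9, 12.6 and 5.90 CPM (log2 -1.58 ± 0.14, adjusted p = 1.06e-05), and Id2 fell by 1.47 ± 0.08. Bmper, which encodes a BMP-binding protein, rose by 1.60 ± 0.11.

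Most smooth muscle contractile genes rose. Of the 20 measured, 14 rose (10 without the block) and none fell, with a median of 1.07, against 13 and 0.91 in scramble cells (8 without the block). The 20 genes summed to 2878 to 2949 CPM with vehicle and 6018 to 6558 CPM with TGF-β under knockdown. In scramble cells these sums were 4827 to 5352 and 10820 to 11110 CPM. The 8 mural cell markers had a median of 0.05. Under knockdown they summed to 275 to 343 CPM with vehicle and 418 to 543 CPM with TGF-β. In scramble cells the sums were 565.7 to 842.6 and 815.9 to 1037 CPM. Pdgfrb, which fibroblasts also express, held 230 to 270 and 367 to 449 CPM of the knockdown sums. Of these markers 4 rose (Rgs5, Cspg4, Pdgfrb and Mcam) and Notch3 fell (3 and 0 without the block), and Vtn lay at 0 to 0.17 CPM. Their part in the result was not tested. Acta2 (chr19:34241090-34255590), for the smooth muscle α-actin that marks myofibroblasts, was at 203, 221 and 172 CPM with vehicle and at 1103, 1265 and 979.8 CPM with TGF-β. Arms did not overlap, and the rise was of log2 2.49 ± 0.11 (adjusted p = 1.73e-07). Its scramble levels were 1018 to 1288 CPM with vehicle and 3487 to 4071 CPM with TGF-β (log2 1.74), so that TGF-β brought depleted cells about to the scramble vehicle level. The difference in response was 0.75 ± 0.15 and missed the threshold (adjusted p = 0.0296). Tagln (chr9:45929619-45936058), for the actin-binding protein SM22α, had a wider change. It rose from 41.3, 52.2 and 36.1 CPM to 540, 601 and 728 CPM under knockdown (log2 3.84 ± 0.17, adjusted p = 1.29e-07), against 395 to 624 up to 1698 to 1739 CPM in scramble cells (log2 1.80). Here the difference of 2.05 ± 0.22 was called (adjusted p = 0.00208, and 0.00873 without the block), although it was lost when replicate 2 or 3 of the scramble TGF-β group was left out (adjusted p of at most 0.0123). Csrp2, for a LIM protein of the actin cytoskeleton, rose by 2.35 ± 0.08 and Tpm1, for a tropomyosin, by 2.04 ± 0.13. Myh11, the myosin heavy chain of mature smooth muscle, was at 1.67, 3.92 and 1.16 CPM with vehicle and 0.75, 6.49 and 0.78 CPM with TGF-β and was not called (log2 -0.03).

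The wider actin cytoskeleton moved the same way. Of 25 cytoskeletal genes and targets of serum response factor (SRF), 19 rose and 2 fell (16 and 1 without the block). Their median was 0.57 against 0.41 in scramble cells. Flnc, for filamin C, rose by 1.22, Tgfb1i1, for the focal adhesion adaptor Hic-5, by 1.16 and Actg1, for γ-actin, by 1.09 ± 0.07. Fhl1, for a LIM-only protein, fell by 1.41 (not called without the block), and Diaph1, for a formin, by 0.29. Srf itself rose by 0.54. The plot of gene lists by median response sets these groups beside the others.

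SRF binds CArG boxes, and RefSeq promoter windows (250 bases before to 50 after the start, GRCm38.p6) of list members were searched for them on both strands. Such a box stood in 3 of 16 contractile (18.8%) and 5 of 22 cytoskeletal genes with a window (22.7%), against 193 of the 12411 tested genes with one (1.56%). The lists were chosen by function, the cytoskeletal one to include SRF targets. These shares thus describe the lists and not the response to TGF-β. Stretches of the windows of Myl9, a regulatory myosin light chain gene that rose from 7.91, 15.4 and 5.67 CPM to 24.6, 52.7 and 22.6 CPM (log2 1.80 ± 0.26), and of Actg1 are shown because both hold a box and both genes rose. Capitals mark the CArG box, at -161 in Myl9 and -90 in Actg1 (first base, relative to the start), and the stretches are chr2:156775243-156775362 (plus strand) and chr11:120348526-120348645 (minus strand).
Myl9: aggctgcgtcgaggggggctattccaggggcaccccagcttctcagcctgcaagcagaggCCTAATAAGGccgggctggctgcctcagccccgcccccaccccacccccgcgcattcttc
Actg1: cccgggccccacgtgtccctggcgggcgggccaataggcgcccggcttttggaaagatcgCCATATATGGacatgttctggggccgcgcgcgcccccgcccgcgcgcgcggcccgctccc
A match describes letters and not binding, and Fhl1, which fell, and Vcl and Ldb3, which were not called, held a box as well.

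**Figure D3:**
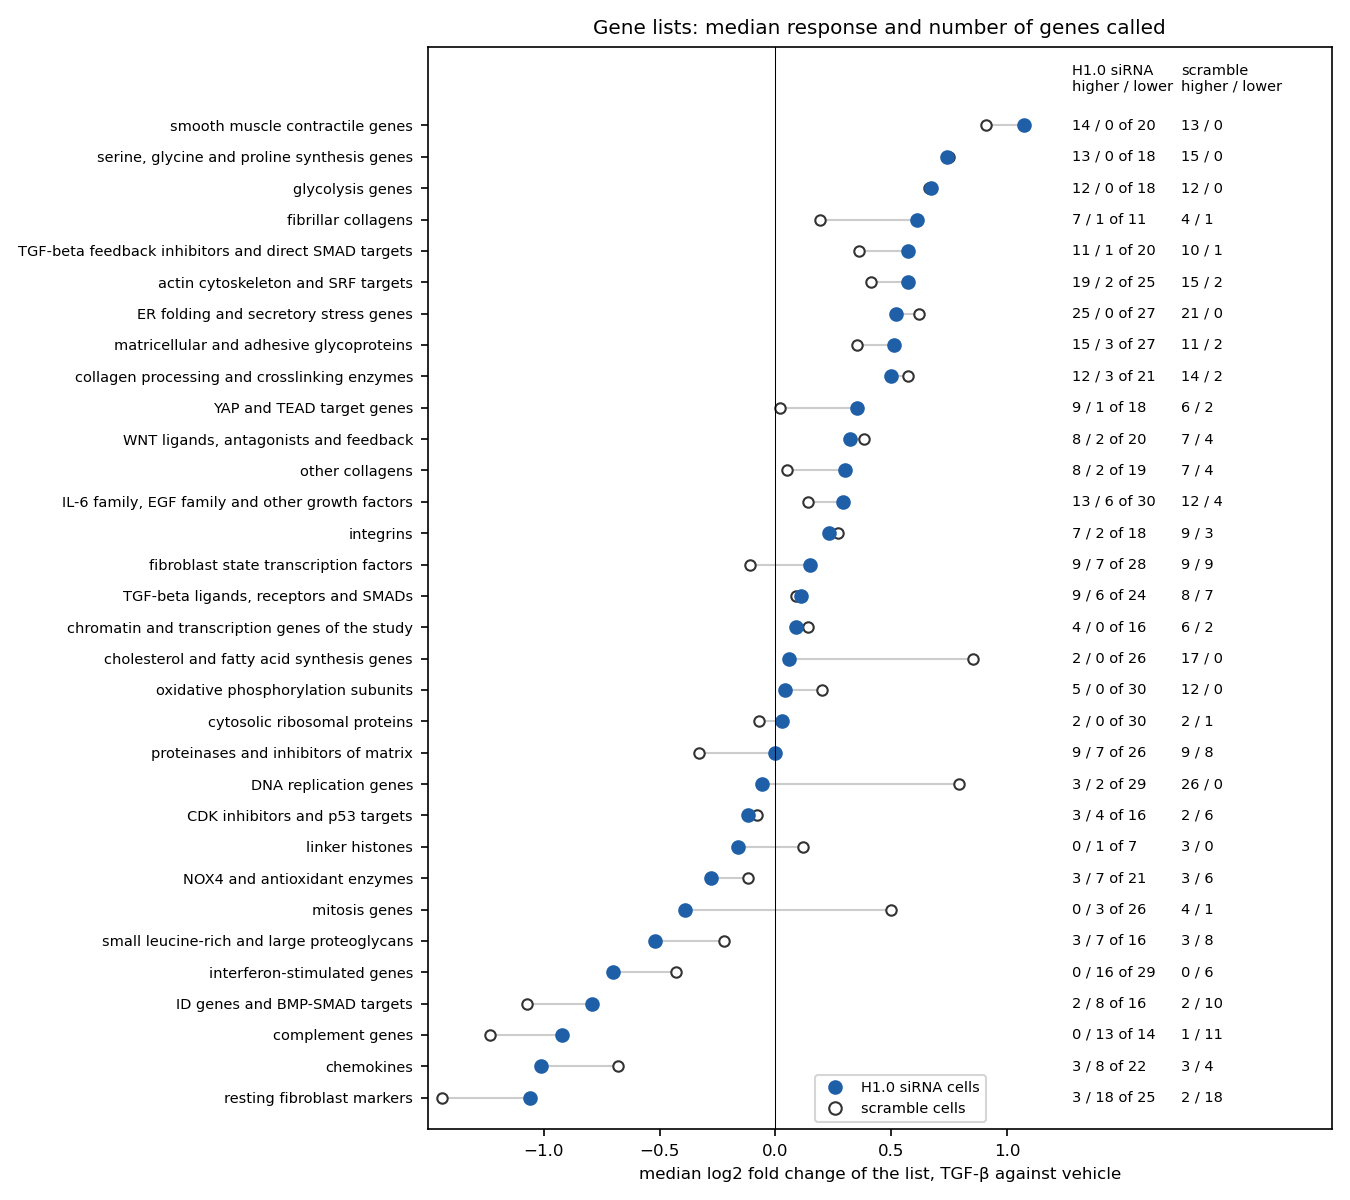
Median log2 fold change with TGF-β of each gene list in H1.0 siRNA cells (filled) and scramble cells (open), with the number of genes called higher and lower at the right. Contractile, glycolysis, serine synthesis, secretory stress and collagen lists lie to the right and resting fibroblast, chemokine, complement and proteoglycan lists to the left in both; of the lists plotted, DNA replication, mitosis and cholesterol synthesis have the widest gaps between both medians.

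Matrix genes moved in both directions. Among 11 fibrillar collagen genes 7 rose and 1 fell (median 0.61). In scramble cells 4 rose and 1 fell (3 and 0 without the block), with a median of 0.19. The abundant chains moved little or downward. Col1a1 went from 8224, 7947 and 8653 CPM to 10180, 12140 and 11580 CPM (log2 0.45 ± 0.07, adjusted p = 0.000657) and Col1a2 rose by 0.42 ± 0.08. Col3a1, for type III collagen, fell from 18700, 18120 and 18200 CPM to 10650, 11740 and 7912 CPM (log2 -0.88 ± 0.12, adjusted p = 0.000166). Col1a1 thus rose while Col3a1 fell in the same cultures, as they did in scramble cells (0.47 and -0.62). The fibril-nucleating chain gene Col11a1 rose from 34.3, 41.2 and 33.0 CPM to 187, 219 and 256 CPM (log2 2.60 ± 0.14, adjusted p = 4.95e-07). In scramble cells it rose by 1.09 from 279 to 332 CPM, and the difference of 1.51 ± 0.19 was called (adjusted p = 0.00447, and 0.0225 without the block). Other collagens rose in 8 of 19 cases and fell in 2 (4 and 1 without the block), led by the basement membrane zone chain gene Col15a1 at 2.93 ± 0.25. The share of them that fell was close to the 12.6% of all genes tested.

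Enzymes that process and crosslink collagen rose in 12 of 21 cases and fell in 3 (8 and 1 without the block). Loxl3, for a lysyl oxidase, rose from 77.3, 55.6 and 109 CPM to 301, 277 and 323 CPM (log2 1.93 ± 0.13). Tll1, for a procollagen C-proteinase, rose by 2.75 ± 0.14 and Loxl2 by 2.28 ± 0.15 (Loxl2 was not called without the block). Adamts14, for a procollagen N-proteinase, rose from 3.68, 2.95 and 8.32 CPM to 14.2, 10.1 and 35.9 CPM under knockdown (log2 1.94 ± 0.25). In scramble cells it was at 9.33 to 12.9 CPM with vehicle and 5.47 to 8.16 CPM with TGF-β and was not called (log2 -0.70, adjusted p = 0.0463). The difference was 2.64 ± 0.35 (adjusted p = 0.00504, and 0.123 without the block), and the call was lost in 8 of the 12 fits that left out 1 library (adjusted p of at most 0.0202).

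Matricellular and adhesive glycoprotein genes rose in 15 of 27 cases and fell in 3 (9 and 0 without the block), with a median of 0.51. Postn (chr3:54361109-54391037), for periostin, a marker of fibroblast activation, rose from 491, 529 and 620 CPM to 1945, 1968 and 2142 CPM (log2 1.89 ± 0.11, adjusted p = 6.87e-07). It ended below the 3425 to 4334 CPM of treated scramble cells, with a difference in response of -0.35 ± 0.15 (adjusted p = 0.251). Tnc, for tenascin C, rose from 103, 134 and 88.5 CPM to 951, 957 and 1534 CPM (log2 3.40 ± 0.23, adjusted p = 1.72e-06). Thbs1, for thrombospondin 1, an activator of latent TGF-β, rose from 688, 1086 and 1185 CPM to 4995, 6443 and 10460 CPM (log2 2.87 ± 0.18, adjusted p = 1.08e-06). In scramble cells Thbs1 rose by 1.27, and the difference was 1.60 ± 0.24 (adjusted p = 0.00787, and 0.13 without the block).

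Of 16 proteoglycan and hyaluronan synthase genes, 7 fell (3 without the block) and 3 rose, with a median of -0.52. Those that rose were the large hyalectan genes Acan, by 4.72 ± 0.43, and Vcan, by 1.63 ± 0.13, and the hyaluronan synthase gene Has2, by 2.79 ± 0.25. The 7 that fell were small leucine-rich members, while Bgn and Aspn of the same class were not called (-0.10 and -0.09). Ogn, for osteoglycin, went from 149, 192 and 209 CPM to 44.2, 42.9 and 50.7 CPM (log2 -2.0 ± 0.15, adjusted p = 2.84e-06), and Dcn, for decorin, fell by 0.84. Matrix proteinases and their inhibitors were mixed, at 9 higher and 7 lower of 26 measured (7 and 4 without the block), Timp4 not having met the count minimum. Adamts8, at only 0.17 to 0.50 CPM in the vehicle libraries, rose by 4.38 ± 0.26, and Adamts12 by 3.08 ± 0.12 to 133, 198 and 204 CPM. Adamts5, for an aggrecanase, fell by 0.99 ± 0.19 and Mmp15 by 1.45 ± 0.19. Of 18 integrin genes 7 rose and 2 fell (6 and 0 without the block), led by the collagen receptor chain gene Itga11, from 98.7, 95.3 and 99.4 CPM to 417, 416 and 318 CPM (log2 1.96 ± 0.09), Itga9 (1.38 ± 0.09) and the fibronectin receptor chain gene Itga5 (1.31 ± 0.10). Targets of the mechanosensitive factors YAP and TEAD rose in 9 of 18 cases and fell in 1 (6 and 1 without the block), the median being 0.35 against 0.02 in scramble cells. Over all genes tested 14.2% rose and 12.6% fell, close to the shares of proteoglycan genes that rose and of integrin genes that fell.

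Genes of the resting fibroblast fell. Of 25, 18 fell (8 without the block) and 3 rose (0 without the block), with a median of -1.06 against -1.44 in scramble cells. Scara5 (chr14:65666403-65764826), for a scavenger receptor of quiescent fibroblasts, fell from 26.0, 32.3 and 31.2 CPM to 2.20, 3.27 and 0.40 CPM (log2 -4.04 ± 0.38, adjusted p = 1.42e-05). Pdgfra, for the platelet-derived growth factor receptor α that marks fibroblasts, fell from 644, 660 and 512 CPM to 162, 202 and 85.8 CPM (log2 -2.08 ± 0.14, adjusted p = 1.29e-06). Ly6a, the gene of the stem cell antigen Sca-1, fell by 3.26 ± 0.24. In all 3 genes the lowest treated library was replicate 3, and arms did not overlap. In bulk RNA, fewer cells of a type and less RNA per cell cannot be told apart.

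Transcription factors of the fibroblast state moved in both directions, with 9 of 28 higher and 7 lower (7 and 1 without the block). Egr2, an immediate early zinc finger factor, rose from 2.01, 1.94 and 2.04 CPM to 33.7, 23.9 and 47.8 CPM (log2 4.12 ± 0.20, adjusted p = 2.12e-07), and Runx1 rose by 1.80 ± 0.09. Tcf21, the factor that specifies cardiac fibroblasts, fell from 225, 189 and 158 CPM to 88.9, 83.9 and 36 CPM (log2 -1.51 ± 0.17). For Meox1 the difference from the scramble response was 1.93 ± 0.26 (adjusted p = 0.0052, and 0.352 without the block).

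Genes of secreted signals moved as well. Of 30 growth factor and cytokine genes 13 rose and 6 fell (10 and 2 without the block). Hbegf, for an epidermal growth factor receptor ligand, rose by 2.82 ± 0.17, and Il11, a profibrotic cytokine gene, from 0.59, 0.35 and 0.30 CPM to 1.53, 2.56 and 5.67 CPM (log2 2.90 ± 0.46, adjusted p = 0.000482). WNT ligands, antagonists and feedback genes rose in 8 of 20 cases and fell in 2 (7 and 0 without the block), with Lef1 up by 4.65 ± 0.40 and Wnt2 by 4.30 ± 0.58. Wnt10b had 1 estimated read over the 3 vehicle libraries and 161 over the 3 treated ones, which is at least 39.4-fold higher against a floor of 3 reads over the group. Of 22 chemokine genes 8 fell (1 without the block) and 3 rose. Over all genes tested 14.2% rose and 12.6% fell, close to the shares of chemokine genes that rose and of WNT genes that fell. Cxcl5, a neutrophil attractant gene, fell by 2.57 ± 0.48, while Cx3cl1, for the membrane-bound chemokine fractalkine, rose from 29.3, 24.6 and 21 CPM to 173, 136 and 134 CPM (log2 2.57 ± 0.07, adjusted p = 1.31e-08).

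Innate immune genes fell. All but 1 of 14 complement genes fell (13, or 6 without the block), with a median of -0.92 against -1.23 in scramble cells. Serping1, for the C1 inhibitor, went from 721, 720 and 511 CPM to 343, 335 and 187 CPM (log2 -1.20 ± 0.11, adjusted p = 1.12e-05). Of 29 interferon-stimulated genes 16 fell and none rose (median -0.70), against 6 that fell in scramble cells (0 without the block, median -0.43). No member was called for the difference. The count under knockdown rests on the block and on the vehicle libraries. It was 1 without the block, 9 without vehicle replicate 1 and 8 without vehicle replicate 2 of the knockdown. Ifit3, an interferon-induced antiviral gene, varied widely between replicates, at 274, 165 and 66.8 CPM with vehicle and 113, 50.2 and 23.2 CPM with TGF-β (log2 -1.48 ± 0.23, adjusted p = 0.000375, and 0.0934 without the block). Macrophage markers moved in the same direction, at a median of -0.55 over 15 genes. Mrc1, for the mannose receptor, fell from 51.4, 46.5 and 40.3 CPM to 7.31, 6.61 and 3.93 CPM (log2 -2.97 ± 0.10, adjusted p = 2.7e-08), whereas Csf1r and Itgam were not called (0.13 and -0.16) and Cx3cr1 had a change of 1.29 (adjusted p = 0.000607, and 0.0178 without the block). The part of these cells in the fall of complement, chemokine and interferon-stimulated genes was not tested.

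Secretory, glycolytic and amino acid synthesis genes rose in H1.0-depleted cells. Of 27 genes of endoplasmic reticulum folding and secretory stress 25 rose and none fell, with a median of 0.52 against 0.62. Creb3l1, for a membrane-bound factor that drives collagen secretion, went from 52.5, 61.6 and 64.3 CPM to 177, 192 and 196 CPM (log2 1.66 ± 0.06, adjusted p = 2.7e-08), and the chaperone gene Hyou1 rose by 0.97 ± 0.07. Of 18 glycolysis genes 12 rose and none fell, at a median of 0.67 against 0.66 in scramble cells. Slc16a3, for a lactate exporter, rose by 2.20 ± 0.17 and Hk2, for hexokinase 2, by 1.36 ± 0.09. Of 18 serine, glycine and proline synthesis genes 13 rose and none fell (4 without the block), with a median of 0.74. Aldh1l2, a mitochondrial folate enzyme gene, rose from 42.6, 41.9 and 73.3 CPM to 125, 151 and 284 CPM (log2 1.78 ± 0.14). Cytosolic ribosomal protein genes stayed near 0, with 2 of 30 higher (0 without the block) and a median of 0.03, against -0.07 in scramble cells. Oxidative phosphorylation subunits had a median of 0.04 under knockdown. Of the 30, 5 were higher (2 without the block), close to the 14.2% of all genes tested. In scramble cells 12 of the 30 rose (7 without the block, median 0.20), and none was called for the difference.

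DNA replication genes rose in scramble cells and, with few exceptions, were not raised under knockdown. In scramble cells 26 of 29 rose (22 without the block), with a median of 0.79, whereas under knockdown 3 rose, Lig1 and E2f1 of the list fell (neither without the block) and the median was -0.06. The difference was called lower for 5 genes, Mcm2, Mcm3, Mcm4, Pcna and Lig1, and its median over the list was -0.83, against 0.244% of all genes called lower. That count was 1 without the block, 16 with DESeq2, 0 to 7 when 1 library was left out (0 without scramble TGF-β replicate 2), and 13 without replicate 3 of every group. The median difference lay between -0.95 and -0.70 with 1 library left out and was -1.0 without replicate 3. Mcm4 (chr16:15623897-15637400), a subunit of the replicative helicase, was at 55.7, 46.3 and 56.8 CPM with vehicle and 97.4, 98.4 and 109 CPM with TGF-β in scramble cells. Under knockdown it was at 33.1, 32.3 and 27.7 CPM with vehicle and at 24.9, 24.6 and 27.0 CPM with TGF-β (log2 -0.28 ± 0.09, adjusted p = 0.0312). The difference was -1.22 ± 0.13 (adjusted p = 0.00208, and 0.00592 without the block), and was lost without scramble TGF-β replicate 2 (adjusted p = 0.0123). Pcna, for the sliding clamp, was flat under knockdown, at 46.3, 40.5 and 43.7 CPM against 42.5, 42.2 and 43.5 CPM, and rose by 0.79 in scramble cells (difference -0.82 ± 0.09, adjusted p = 0.00347, and 0.0215 without the block). Rpa1, a single-stranded DNA binding subunit gene outside the list, fell under knockdown from 56.3, 49.5 and 81.0 CPM to 44.3, 43.0 and 57.0 CPM (log2 -0.36 ± 0.07, adjusted p = 0.00141, and 0.188 without the block) and rose by 0.55 in scramble cells. The list members that did rise were Mcm6 (0.80 ± 0.10), from 25.0, 20.7 and 17.7 CPM to 39.2, 32.0 and 38.6 CPM, and 2 genes of nucleotide supply, Tyms (0.81 ± 0.08) and Rrm1 (0.86 ± 0.07), for thymidylate synthase and the large ribonucleotide reductase subunit.

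E2F factors are known regulators of replication genes. The RefSeq promoter windows were searched on both strands for 4 words of the E2F consensus, TTTCCCGC, TTTCGCGC, TTTGCCGC and TTTGGCGC, which may overlap each other. A word stood in 11 of 24 replication genes with a window (45.8%), against 521 of the 12411 tested genes with one (4.2%). The list was chosen by function, so its share describes the list and not the response to TGF-β. The windows of Mcm5 and Mcm6 are shown since both encode subunits of the same helicase ring and both hold overlapping words, while their changes under knockdown were 0.10 ± 0.16 and 0.80 ± 0.10. Capitals mark the words, in chr8:75109298-75109417 (plus strand) for Mcm5 and chr1:128359725-128359844 (minus strand) for Mcm6.
Mcm5: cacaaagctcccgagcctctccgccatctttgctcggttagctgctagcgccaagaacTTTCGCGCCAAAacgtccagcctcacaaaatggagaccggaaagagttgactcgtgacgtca
Mcm6: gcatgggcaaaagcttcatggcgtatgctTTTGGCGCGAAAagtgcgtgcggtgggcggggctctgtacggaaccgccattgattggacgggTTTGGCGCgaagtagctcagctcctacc
Mcm5 was chosen after its values were seen. It rose by 1.07 in scramble cells, and its difference in response was -0.97 ± 0.22 (adjusted p = 0.0432).

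**Figure D4:**
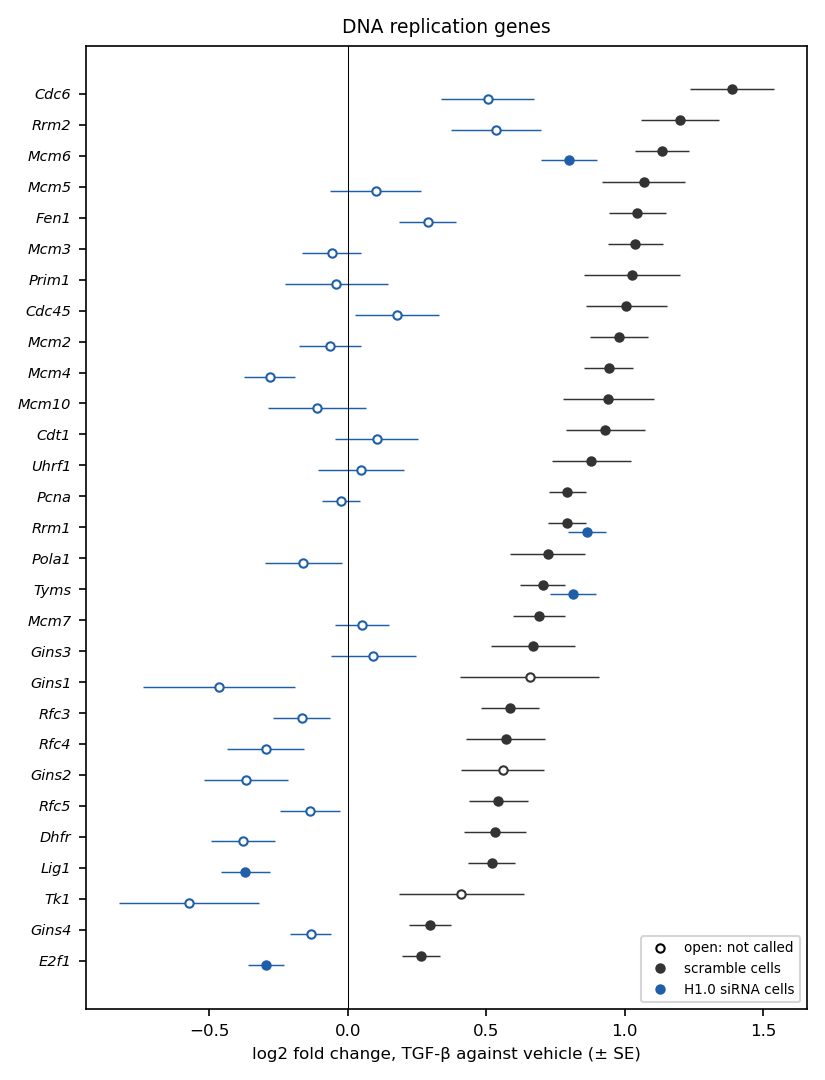
Log2 fold change with TGF-β (± SE, x axis) of each DNA replication gene in scramble cells (black) and H1.0 siRNA cells (blue); filled points were called and open points were not. Every scramble point lies to the right of 0, and most points of H1.0 siRNA cells lie near 0, with Mcm6, Tyms and Rrm1 called higher and Lig1 and E2f1 called lower.

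Mitosis genes had a median of -0.39 under knockdown, with 3 of 26 lower, and of 0.50 in scramble cells, with 4 higher and 1 lower (0 and 0 without the block). These counts are close to the shares over all genes tested, 12.6% lower under knockdown and 15.4% higher in scramble cells. No member was called for the difference by edgeR's test, with or without the block, and DESeq2 called 9 lower. Single libraries decided these counts, which ran from 1 to 14 lower under knockdown, the highest without vehicle replicate 3, and from 0 to 12 higher in scramble cells. Leaving out replicate 3 of every group gave 14 lower under knockdown and 13 higher in scramble cells, with 12 called for the difference. The cell cycle regulator gene Ccnd1, for cyclin D1, fell in both, from 136, 104 and 176 CPM to 41.6, 30.4 and 47.0 CPM under knockdown (log2 -1.80 ± 0.07, adjusted p = 3.24e-08). Cdkn2b, for the inhibitor p15 that TGF-β is known to induce, rose from 12.6, 13.8 and 17.7 CPM to 43.6, 36.1 and 87.7 CPM (log2 1.87 ± 0.18, adjusted p = 1.87e-05). In scramble cells Cdkn2b was at 16.2 to 18.2 CPM with vehicle and 17.8 to 24.3 CPM with TGF-β (log2 0.26, adjusted p = 0.311), and the difference of 1.61 ± 0.26 missed the threshold (adjusted p = 0.0109).

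Cholesterol and fatty acid synthesis genes had a higher median in scramble cells. Of 26, 2 rose under knockdown (1 without the block, median 0.06) and 17 rose in scramble cells (8 without the block, median 0.85), while edgeR's test called none for the difference (median -0.73). DESeq2 called 3 lower, and leaving out 1 library gave 0 to 10. The counts of this list rest on replicate 3. Its median log2 fold change within replicates 1, 2 and 3 was 1.4, 1.16 and 0.11 in scramble cells and 0.36, 0.18 and -0.29 under knockdown. Without replicate 3 of every group, 26 genes rose in scramble cells, 11 rose under knockdown and 20 were called lower for the difference. Fdps, for farnesyl diphosphate synthase, was at 231, 216 and 304 CPM with vehicle and 292, 246 and 247 CPM with TGF-β under knockdown, against 54.4 to 136 CPM with vehicle and 176 to 221 CPM with TGF-β in scramble cells. The vehicle libraries of depleted cells thus lay above those of scramble cells and overlapped the treated scramble libraries.

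Of 16 genes of chromatin and transcription 4 rose and none fell (median 0.09), against 26.8% of all genes tested called in either direction. Polr2a, for the largest subunit of RNA polymerase II, had a change of -0.18 ± 0.06 (adjusted p = 0.048). Hdac1, for a histone deacetylase, rose by 0.26 ± 0.05 (adjusted p = 0.00267), a call kept in 15 of 22 alternative fits. Sertad4, for a transcriptional co-regulator of the SERTA domain family, rose from 38.0, 34.5 and 22.7 CPM to 84.2, 91.7 and 59.4 CPM (log2 1.31 ± 0.10, adjusted p = 3.37e-06), against 1.14 in scramble cells. Of the other linker histone genes, H1fx fell by 0.75 ± 0.17 (not called when any 1 of 5 of the 6 knockdown libraries was left out) and the remaining 5 were not called. Hist1h1a, Hist1h1b and Hist1h1d rose in scramble cells, by 0.92, 0.89 and 0.67, and had changes of -0.16, -0.11 and 0.08 under knockdown, with no call for the difference by edgeR's test. DESeq2 called 2 linker histone genes lower for it, and edgeR 1 without replicate 3 of every group.

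Genes with the smallest p for a difference in response included a few that TGF-β moved in only 1 of the siRNA groups. Syn2, for a synaptic vesicle protein, rose from 1.67, 1.98 and 1.10 CPM to 16.8, 12.1 and 16.0 CPM under knockdown (log2 3.26 ± 0.21) and stayed at 3.54 to 5.47 CPM in all 6 scramble libraries (log2 -0.12). Its difference of 3.38 ± 0.28 (adjusted p = 0.000941) was called in all 21 alternative fits it entered. Robo2, for a guidance receptor of SLIT ligands, went from 2.14, 2.69 and 3.86 CPM to 26.4, 18.1 and 22.0 CPM, against 6.75 to 9.86 CPM in all scramble libraries, with a difference of 2.89 ± 0.27 (adjusted p = 0.00134) that was likewise called in all 21. In both genes the vehicle level was lower and the treated level higher than in scramble cells. Wdr76, for a WD repeat protein, showed the reverse, at 6.44 to 6.95 CPM with vehicle and 5.63 to 5.99 CPM with TGF-β under knockdown, and at 7.46 to 8.74 CPM and 17.2 to 20.2 CPM in scramble cells (difference -1.41 ± 0.14, adjusted p = 0.00193, called in all 21).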

How the data were processed

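Total RNA depleted of ribosomal RNA was sequenced in paired ends from 12 libraries in 4 groups of 3. The authors quantified reads with Salmon on transcripts of the mm10 genome and deposited estimated counts per transcript, with effective lengths, which were used in 1 alternative. The estimated counts deposited per transcript were summed per gene here and rounded. Of 117135 transcripts, 115973 matched the annotation, and they held at least 99.5% of reads in each library.

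The 18028 genes whose counts summed to 10 or more across all libraries were fitted with edgeR 4.0.16 (R 4.3.3), with TMM scaling, group and replicate number as terms, the quasi-likelihood F test and Benjamini-Hochberg adjustment over all of them. A gene was called at an adjusted p under 0.01. The SE is the log2 fold change over the square root of F. Same-numbered libraries deviated together in all 18 pairs, with correlations of 0.331 to 0.723. Deviations were taken from the mean of each library's group, which by construction pulls correlations between different numbers downward. Between different numbers correlations ran from -0.627 to 0.34 (median -0.394). They were negative where replicate 3 took part and positive, from 0.0526 to 0.34, between replicates 1 and 2. The replicate number was kept as a block, although what a number shares is not given in the sources used here. The fit was tested on simulated counts.

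Named genes were H1f0, those the study singled out, the 12 called genes of largest change in each direction with a mean of at least 5 CPM in the higher group and no overlap, up to 3 called members in each direction of each list, and the 6 of smallest p in each direction for the difference. Others (uncalled members, Mcm5, E2f1 and further list members named for contrast) were chosen after their values were seen. The members and lists were chosen with earlier results of these data known. Alternatives were no block, the 6 knockdown libraries alone, DESeq2 1.42.0, limma-voom (limma 3.58.1), other size factors, a length offset, other count minimums, thinning to the lowest total count, a 2-fold rule and leaving out libraries. Some genes that this rule names are not reported here.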

Additional observations from a re-analysis of the deposited data

Results flagged for a closer look

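The following genes had a response to TGF-β under H1.0 siRNA that differed from that of scramble cells by the interaction term of edgeR's quasi-likelihood fit, at an adjusted p under 0.01. Values are the log2 fold change under knockdown less that of scramble cells, from 3 libraries a group. Syn2 (3.38), Robo2 (2.89) and Wdr76 (-1.41) were called in all 21 alternative fits. Tagln (2.05), Rapgef3 (0.93) and Mcm4 (-1.22) were also called without the replicate block. Tagln lost the call without scramble TGF-β replicate 2 or 3, Mcm4 without scramble TGF-β replicate 2 and Rapgef3 with a transcript length offset.

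Among the other genes with a higher response under knockdown, Adamts8 differed by 2.79, Adamts14 by 2.64, Meox1 by 1.93, Thbs1 by 1.60, Col11a1 by 1.51, Gpr153 by 1.47 and Adamts12 by 1.29. Smaller differences were those of Pcdh19 (1.07), Cx3cl1 (0.98), Ccn2 (0.95), Itga11 (0.83), Tgfb1i1 (0.77) and Creb3l1 (0.63). These encode matrix proteinases, matrix and adhesion proteins and regulators, a protocadherin, a chemokine and a receptor. None was called without the block. Pcdh19, Cx3cl1 and Gpr153 kept the call in the other 20 of 21 alternative fits, whereas single libraries decided the rest. The call was kept in 14 fits for Col11a1, 13 for Adamts12, 12 for Adamts14, 11 for Meox1, Adamts8, Ccn2 and Creb3l1, 9 for Thbs1 and Itga11 and 6 for Tgfb1i1.

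A lower response under knockdown was found for Mcam (-1.82), a cell adhesion molecule gene of mural cells, and for Boc (-1.14), a co-receptor gene of the hedgehog pathway. It was also found for Rpa1 (-0.90), Lig1 (-0.89) and Pcna (-0.82) of DNA replication (Rpa1 is not a member of the list of replication genes), and for Ccnd1 (-0.77). None of these 6 was called without the block. Boc kept the call in the other 20 of 21 alternative fits and Rpa1 in 19, while Pcna kept it in 15, Ccnd1 in 14 and Mcam and Lig1 in 10, each lost with any of several single libraries left out. Rpa1 had changes of -0.36 under knockdown and 0.55 in scramble cells. Rapgef3, for an exchange factor that cyclic AMP activates, fell by 1.13 in scramble cells and had a change of -0.20 under knockdown.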

How the results depend on the processing

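Without the replicate block 1648 genes rose and 1190 fell under knockdown, 1431 fell in scramble cells, and the difference was called for 6 higher and 2 lower. Requiring a 2-fold change left 601 and 674 genes under knockdown, 548 and 686 in scramble cells and 27 and 17 for the difference. For the difference, DESeq2 called 300 and 293 genes, a transcript length offset 30 and 10, no count minimum 124 and 75, and the fit without replicate 3 of every group, chosen after seeing the data, 203 and 192. With 1 library left out, the difference was called for 8 to 107 higher and 3 to 84 lower, the fewest without scramble TGF-β replicate 2. Counts under knockdown then ran from 1934 to 2605 higher and from 1616 to 2297 lower. The cause of these shifts was not tested, beyond the fewer libraries or stricter rule of some fits. Among the named genes, no direction called under knockdown reversed in an alternative fit. Of 171 called named genes, 105 kept the call in all 22 alternatives it entered, 58 lost it without the block and 26 with libraries left out. Thinning every library to the lowest total count gave 2379 higher and 2172 lower under knockdown. Depth limits genes near a few CPM, and 3 libraries a group cannot give an exact permutation p below 0.1 for a single gene.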

Other observations

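Redox genes had 7 of 21 lower and 3 higher under knockdown (4 and 1 without the block), with a median log2 fold change of -0.28 against -0.12 in scramble cells. Gstm1, for a glutathione transferase, fell from 274, 254 and 468 CPM to 85.3, 60.5 and 103 CPM (log2 -2.0 ± 0.19), and Cat, for catalase, fell by 0.83 ± 0.07, while Nox4 rose. Of 16 CDK inhibitor and p53 target genes 3 rose (1 without the block) and 4 fell. Beside the counts of both lists, 14.2% of all genes tested rose and 12.6% fell. Cdkn1c, for the inhibitor p57, fell by 2.47 ± 0.30 and Sesn1, for a sestrin, by 1.21 ± 0.07, while Cdkn1a, for p21, was at 656, 596 and 644 CPM with vehicle and 602, 565 and 485 CPM with TGF-β and was not called.

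Crabp2 had its 3 treated knockdown libraries at 2.92, 3.94 and 26.5 CPM, with replicate 3 the highest, and its 3 treated scramble libraries at 1.4, 1.69 and 6.68 CPM. Fam205a2 had 652 estimated reads over the 3 vehicle libraries and 0 over the 3 treated ones under knockdown, which is at least 296-fold lower against a floor of 3 reads over the group, and was at 0 in 1 scramble vehicle library. Among marker lists, mural cell markers had 4 of 8 higher and 1 lower (3 and 0 without the block). Fibroblast markers had 2 of 10 higher and 6 lower, and cardiomyocyte markers 0 higher and 1 of 9 lower. Over all genes tested, 14.2% were higher and 12.6% lower. Markers of endothelium, lymphocytes, Schwann cells and mesothelium had no called member in the edgeR test under knockdown.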
